A study of Rattus norvegicus with 6 samples.

Results

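The urea cycle and amino acid catabolism genes were followed in rat liver as a set of 39 genes chosen by name, and every non-control array probe whose transcript accession belonged to 1 of them was taken. Of the 39 genes, 37 had a matched probe, with 53 probes in all, out of 15284 genes with 27460 matched probes on the array. All 37 genes and all 53 probes were bright enough to be tested, in a table of 34637 tested probes and 10609 tested genes. Slc25a13, the mitochondrial aspartate and glutamate carrier, and Uroc1, which acts after Hal in histidine breakdown, had no matched probe and were not analysed here.

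The livers came from 3 rats killed after isoflurane anaesthesia, an inhaled agent, and 3 rats killed after CO2/O2 anaesthesia, a breathed gas mixture, with 1 rat per 1-colour array and no group without anaesthesia. All 6 were male Crl:CD(SD) Sprague-Dawley rats, an outbred stock, 9 weeks old. All had been given corn oil at 5 mL/kg/day, for 3 days by the design text and for 9 weeks by the treatment protocol, which do not agree. The comparison asked whether the way of anaesthesia before killing altered liver transcripts.

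Amino acids that are not used to build protein lose their nitrogen in the liver, and the carbon skeletons are burned or turned into glucose. Transaminases pass the amino groups to glutamate, glutamate dehydrogenase and glutaminase release them as ammonia, and the urea cycle of periportal hepatocytes joins ammonia and aspartate nitrogen into urea, in steps split between mitochondria and cytosol. Several of the enzymes at the heads of these pathways, such as tyrosine aminotransferase and serine dehydratase, are textbook targets of glucocorticoids, glucagon and feeding.

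Signals are given as log2 of the processed spot signal minus the 75th percentile of the same array, so 0 is that percentile and 1 unit is a 2-fold step. Differences are isoflurane minus CO2/O2 on this log2 scale, ± the standard error of limma's fit. All 37 genes were well above background on all 6 arrays, and all 37 lay above the 75th percentile on all 6, as did 5756 of 10609 genes tested. The hepatocyte markers Alb, Ttr, Apoa1, Apoh, Tf, Fgb, Serpina1 and Ahsg, 8 of 8 tested, had a median signal of 9.09, far above the 75th percentile. Between 53.4% and 62.3% of the 61657 probes of an array were well above background. The arrays shared 1 slide and 1 scan time, with isoflurane replicate 1 and all 3 CO2/O2 replicates in slide row 1 and isoflurane replicates 2 and 3 in row 2.

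No gene of the set passed the test between the forms of anaesthesia. At the brightest tested probe of each gene, rats of the same group differed by more than 2-fold only in Sds, Tat and Got1. With limma and Benjamini-Hochberg adjustment over all tested probes, 0 of 37 genes passed an adjusted p of 0.05, where the share over all genes tested was 0.0%; the smallest adjusted p in the set was 0.569, for Agxt. At an unadjusted p under 0.05 there were 2 of 37 genes, or 5.41%, against 7.58% of all genes tested. In 3 of 37 genes, or 8.11%, the 3 isoflurane values did not overlap the 3 CO2/O2 values, against 14.2% of all genes tested. With all 6 arrays both shares lay below those of all genes. With 1 array left out in turn, the count at an unadjusted p under 0.05 was 5 without isoflurane replicate 1, or 13.5% against 9.75% of all genes in that fit. It was 4, or 10.8%, without isoflurane replicate 2 (all genes 6.47%) or CO2/O2 replicate 3 (all genes 8.34%). It was 1, or 2.70%, without isoflurane replicate 3 (all genes 7.44%) or CO2/O2 replicate 2 (all genes 4.51%). Without CO2/O2 replicate 1 it was 2, or 5.41% (all genes 4.32%). The count without overlap was 11, or 29.7%, without isoflurane replicate 1 (all genes 28.7%) and 8, or 21.6%, without isoflurane replicate 2 (all genes 23.5%). It was 3, or 8.11%, without isoflurane replicate 3 (all genes 26.3%). It was 6, 7 and 7, or 16.2%, 18.9% and 18.9%, without CO2/O2 replicates 1, 2 and 3, where all genes had 22.4%, 21.2% and 27.4%. For the unadjusted p, the side of the share over all genes that the set lay on turned on single rats. For overlap, the set lay above that share only without isoflurane replicate 1, at 29.7% against 28.7%.

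The median difference of the 37 genes was -0.03, against -0.01 for all genes tested, with 16 genes above 0 and 21 below. The range ran from -0.60 in Sds to 0.44 in Bckdhb, and in 13 of 37 genes the difference crossed 0 when some array was left out. In 33 of 37 genes, or 89.2%, the 95% confidence interval of the difference lay within 2-fold in either direction, against 90.5% of all genes tested, and in 21 of 37 it lay within 1.5-fold. At the brightest tested probe of each gene, changes of 2-fold or more were therefore outside the interval for all but Sds, Tat, Got1 and Aass. Further probes were not counted here, and those of Bhmt (-0.29 ± 0.40) and Slc25a15 (0.04 ± 0.41) had larger errors than the probes used. Blocking on slide row left isoflurane replicate 1 as the only isoflurane rat compared within a row, and the median difference was then 0.09.

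**Figure D1:**
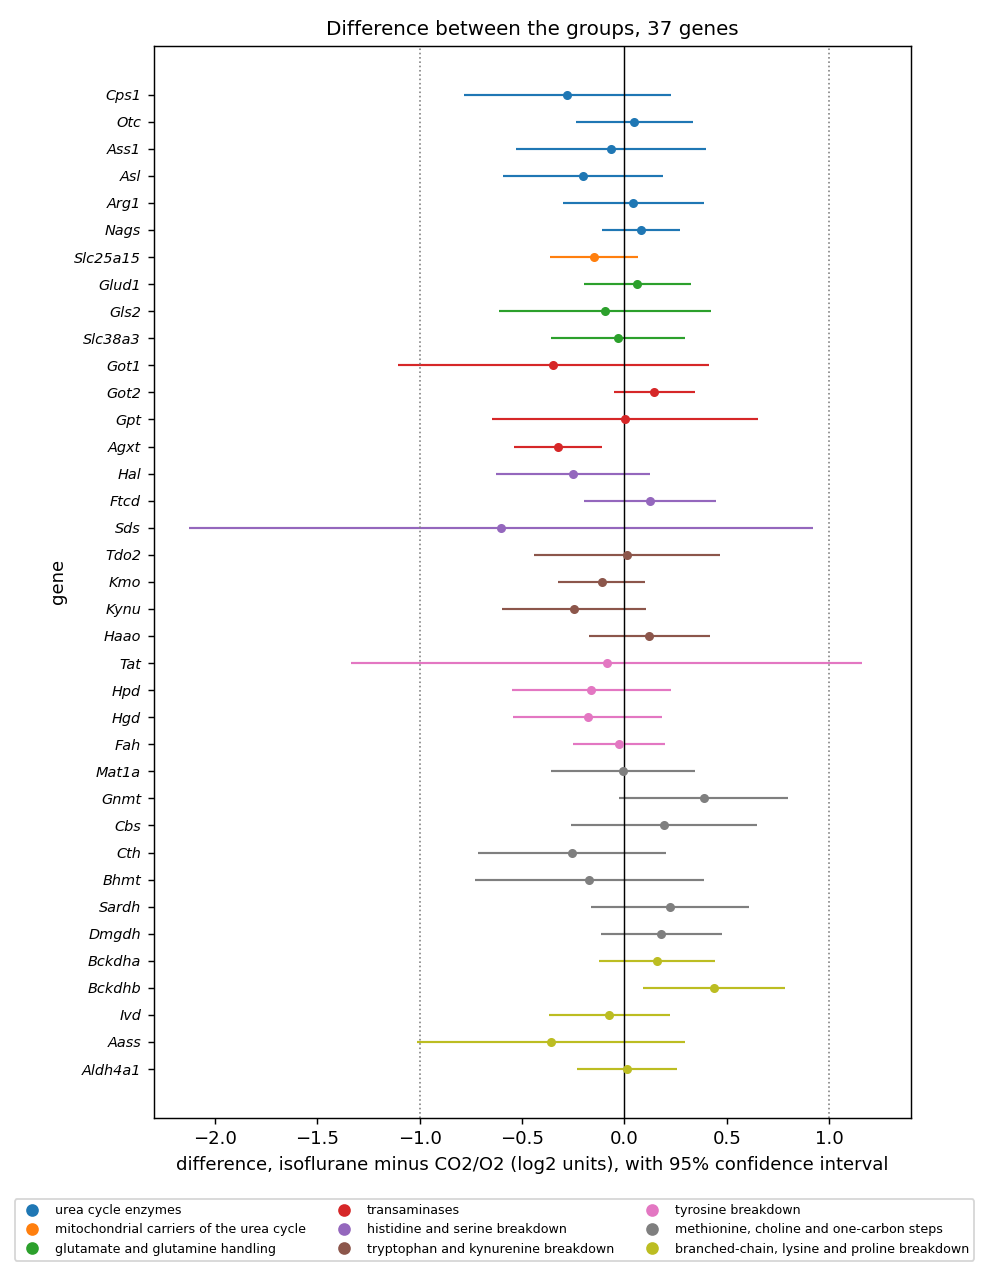
Difference between isoflurane and CO2/O2 livers (log2 units, points) with its 95% confidence interval from limma (lines) for the 37 genes, coloured by role, with dotted lines at a 2-fold difference. All intervals but those of Agxt and Bckdhb cross 0, and Sds and Tat have the widest intervals.

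The rat-to-rat spread was wider than for most genes. The standard deviation within groups had a median of 0.193 log2 units over the 37 genes, against 0.147 over all genes tested and 0.115 over the 5756 genes above the 75th percentile on all arrays. It ran from 0.047 in Nags to 0.957 in Sds. At the brightest tested probe of each gene, the highest rat exceeded the lowest by 6.07-fold in Sds, 3.76-fold in Tat and 2.47-fold in Got1. These were the 3 genes past 2-fold there, while 20 of 37 stayed under 1.5-fold. Dimmer probes of Bhmt, from 5.13 to 6.56, and of Slc25a15, from -3.68 to -2.25, also passed 2-fold.

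The same rats tended to be high or low across the set. CO2/O2 replicate 3 had the highest signal for 18 of 37 genes, or 48.6%, against 18.2% of all genes tested, and the lowest for 0. Isoflurane replicate 2 had the lowest signal for 15 genes, or 40.5%, against 23.3% of all genes. Averaged over the 37 genes, signals deviated from each gene's mean over the arrays by 0.12, -0.19 and 0.00 in isoflurane replicates 1 to 3, against -0.02, -0.13 and 0.22 in CO2/O2 replicates 1 to 3. Each group held rats above and below the average. Both rats were picked out with the values in view, so the shares are a description.

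**Figure D2:**
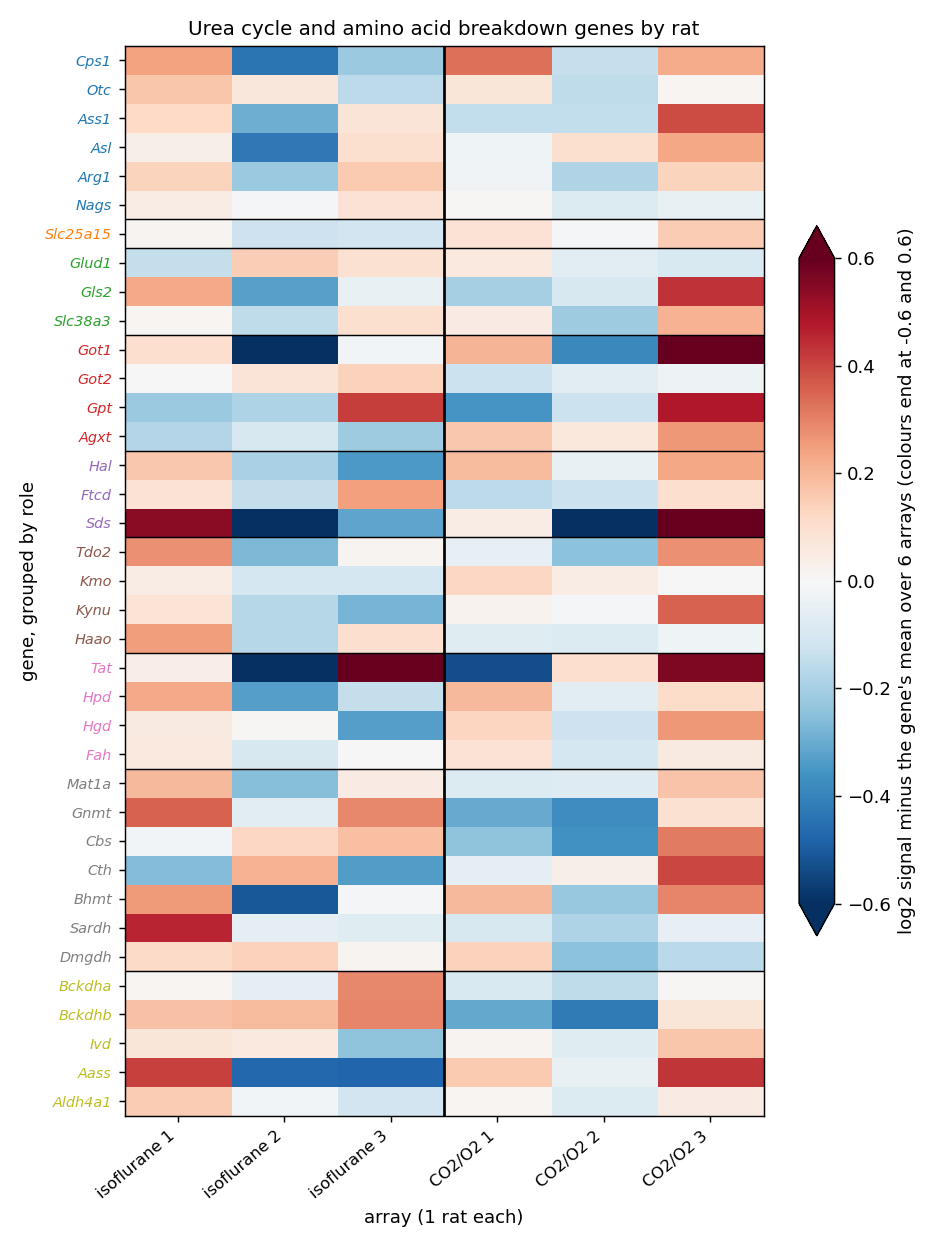
Signal of each of the 37 genes on each of the 6 arrays as the log2 difference from that gene's mean over the arrays (red above, blue below), grouped by role, with isoflurane on the left and CO2/O2 on the right. Isoflurane replicate 2 is mostly blue, with a mean deviation of -0.19, and CO2/O2 replicate 3 mostly red, at 0.22.

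The 8 hepatocyte markers stayed within 0.04 of their means when averaged per array, with 0.03, 0.03 and -0.03 in isoflurane replicates 1 to 3 and -0.02, 0.03 and -0.03 in CO2/O2 replicates 1 to 3. The 10 tested Kupffer cell markers averaged -0.10, -0.21 and -0.22 in isoflurane livers and 0.36, 0.22 and -0.04 in CO2/O2 livers, with 10 of 10 differences below 0 and a median of -0.35. Differences were also below 0 for 7 of 7 lymphocyte markers (median -0.39), 4 of 5 erythroid markers (median -0.37) and 4 of 5 cholangiocyte markers (median -0.33). So were 3 of 4 exocrine pancreas markers (median -0.28). Differences were above 0 for 6 of 8 hepatocyte markers (median 0.03) and 2 of 2 kidney proximal tubule markers (median 0.27). Of all genes tested, 52.9% were below 0. The share of probes well above background was 60.6%, 53.4% and 55.7% on the isoflurane arrays and 56.9%, 60.2% and 62.3% on the CO2/O2 arrays. It too was lowest on isoflurane replicate 2 and highest on CO2/O2 replicate 3. The 2 orders of the arrays matched except that isoflurane replicate 3 and CO2/O2 replicate 2 changed places. CO2/O2 replicate 2 had 60.2% but a mean deviation of -0.13 in the 37 genes. The part of cell makeup or of array brightness in the amino acid genes' pattern was not tested, and in whole liver fewer cells of a type and less RNA per cell cannot be told apart.

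Among genes of the set with a promoter entry at the RefSeq gene start, Tat had the largest SD within groups. Agxt and Bckdhb had the smallest unadjusted p by limma, and none of the 3 passed the test. The promoter sequences of these 3 genes were examined. They are the 250 bases before the RefSeq gene start on the assembly GRCr8, 5′ to 3′, from the plus strand at chr19:54856354-54856603 (Tat), chr9:101122543-101122792 (Agxt) and chr8:93725027-93725276 (Bckdhb). Capitals mark matches on either strand to TGTTCT, a core hexamer of the glucocorticoid response element, to TGACG, a core of the cAMP response element, to CCAAT and to TATAAA.
Tat: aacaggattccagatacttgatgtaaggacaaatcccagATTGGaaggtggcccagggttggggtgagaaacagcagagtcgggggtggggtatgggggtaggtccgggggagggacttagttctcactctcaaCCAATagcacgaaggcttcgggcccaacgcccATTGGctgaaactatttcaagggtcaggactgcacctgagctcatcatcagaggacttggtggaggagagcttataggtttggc
Agxt: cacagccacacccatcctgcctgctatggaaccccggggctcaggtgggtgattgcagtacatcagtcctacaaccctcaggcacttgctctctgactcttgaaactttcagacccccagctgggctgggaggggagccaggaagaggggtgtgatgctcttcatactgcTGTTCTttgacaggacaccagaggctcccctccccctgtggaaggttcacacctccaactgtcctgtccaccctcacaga
Bckdhb: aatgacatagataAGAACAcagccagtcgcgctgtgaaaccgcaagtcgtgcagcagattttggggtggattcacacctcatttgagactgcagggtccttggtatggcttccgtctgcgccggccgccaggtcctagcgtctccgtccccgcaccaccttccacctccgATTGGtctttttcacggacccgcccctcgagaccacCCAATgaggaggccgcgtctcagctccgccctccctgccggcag
Tat had CCAAT matches at 84, 116 and 211 bases before the start, Agxt had TGTTCT at 80, and Bckdhb had CCAAT at 44 and 80 and the reverse complement of TGTTCT at 237. Of the 39 genes, 32 had an entry in the promoter table. TGTTCT in either direction occurred in 5 of 32, or 15.6%, against 17.0% of 27457 promoters of that length, TGACG in 12.5% against 18.9%, TATAAA in 15.6% against 13.1%, and CCAAT in 17 of 32, or 53.1%, against 34.3%. Sites farther than 250 bases before the start were not searched, so an absent match says nothing of them. A match is a description of letters and was not tied to the signals.

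The 6 urea cycle enzymes had 3 differences above 0 and 3 below, 0 past the threshold, and intervals that all lay within 2-fold. Cps1, the mitochondrial carbamoyl phosphate synthetase that takes up ammonia, had signals of 4.57, 3.89 and 4.11 in isoflurane livers, against 4.66, 4.19 and 4.56 in CO2/O2 livers, a difference of -0.28 ± 0.21 (limma, adjusted p = 0.790). Isoflurane replicate 2 was lowest and CO2/O2 replicate 1 highest, and the groups overlapped. Blocked by slide row its difference was 0.10, on the other side of 0. Nags makes the N-acetylglutamate that Cps1 needs; its signals were 2.99, 2.93 and 3.03 after isoflurane, against 2.95, 2.86 and 2.90 after CO2/O2, a difference of 0.08 ± 0.078. It varied less between rats than any other gene of the set, with an SD smaller than that of all but 3.84% of the genes tested.

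Otc, which joins carbamoyl phosphate to ornithine, had 5.48, 5.38 and 5.16 in isoflurane livers and 5.39, 5.16 and 5.33 in CO2/O2 livers (difference 0.05 ± 0.12). Ass1, which adds aspartate to citrulline, had 6.96, 6.55 and 6.92 in isoflurane livers and 6.70, 6.69 and 7.23 in CO2/O2 livers (difference -0.06 ± 0.19). Both sets of values were interleaved, and for Ass1 isoflurane replicate 2 was again lowest and CO2/O2 replicate 3 highest. Asl, which splits argininosuccinate into arginine and fumarate, had 7.43, 6.97 and 7.49 after isoflurane, against 7.37, 7.49 and 7.63 after CO2/O2, a difference of -0.20 ± 0.16, of which -0.04 was left without isoflurane replicate 2. Arg1, the arginase that releases urea, had 7.80, 7.44 and 7.82 after isoflurane, against 7.64, 7.49 and 7.80 after CO2/O2, a difference of 0.04 ± 0.14. In 4 of the 6 enzymes the lowest rat was isoflurane replicate 2. Slc25a15, which carries ornithine into mitochondria, had 3.91, 3.78 and 3.78 in isoflurane livers, against 3.99, 3.89 and 4.05 in CO2/O2 livers, a difference of -0.15 ± 0.089 with values that overlapped by a single rat.

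Of the genes that handle glutamate and glutamine, none of 3 passed the test. Glud1, glutamate dehydrogenase, had 6.65, 6.95 and 6.89 in isoflurane livers and 6.86, 6.74 and 6.71 in CO2/O2 livers, a difference of 0.06 ± 0.11. Gls2, the liver glutaminase, had 6.66, 6.10 and 6.38 in isoflurane livers and 6.23, 6.33 and 6.86 in CO2/O2 livers, a difference of -0.09 ± 0.21. The rat lowest for Gls2, isoflurane replicate 2, was the highest for Glud1. Slc38a3, the glutamine transporter, differed by -0.03 ± 0.14.

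Transaminases held the gene nearest to the threshold. Agxt, alanine-glyoxylate aminotransferase, which detoxifies glyoxylate in the liver, had 4.06, 4.14 and 4.02 in isoflurane livers, against 4.40, 4.30 and 4.50 in CO2/O2 livers. Every isoflurane value lay below every CO2/O2 value, and the difference of -0.32 ± 0.089 had an adjusted p of 0.569 by limma (unadjusted p = 0.0103). Its other probe had 3.35, 3.28 and 3.19 after isoflurane, against 3.54, 3.48 and 3.57 after CO2/O2, a difference of -0.26 ± 0.083, again without overlap. Blocked by slide row the difference was -0.34, and with any array left out it lay between -0.37 and -0.27. Without overlap between the groups, its sign could not change in either.

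Got1, the cytosolic aspartate aminotransferase, had 4.39, 3.68 and 4.27 in isoflurane livers, against 4.49, 3.90 and 4.99 in CO2/O2 livers, a difference of -0.35 ± 0.31. That difference was -0.63 without CO2/O2 replicate 2, -0.08 without CO2/O2 replicate 3 and -0.07 when blocked by slide row. Replicate 2 was the lowest rat in each group, CO2/O2 replicate 3 the highest of all, and 93.1% of genes tested had a smaller SD. Got2, the mitochondrial form of the enzyme, had an SD of only 0.06; its 3 isoflurane values lay above its 3 CO2/O2 values, with a difference of 0.15 ± 0.082 (limma, adjusted p = 0.728). Gpt, alanine aminotransferase, differed by 0.00 ± 0.27.

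Histidine and serine breakdown held the gene with the widest spread. Sds, serine dehydratase, which turns serine into pyruvate and ammonia, had 3.74, 2.06 and 2.88 in isoflurane livers, against 3.24, 2.58 and 4.66 in CO2/O2 livers. CO2/O2 replicate 3 stood highest and isoflurane replicate 2 lowest, the groups overlapped, and 98.7% of genes tested had a smaller SD. The difference was -0.60 ± 0.63 (limma, adjusted p = 0.850), with an interval from -2.13 to 0.92. Without CO2/O2 replicate 3 it was -0.02, and blocked by slide row 0.24. Hal, histidine ammonia-lyase, had 6.84, 6.49 and 6.34 after isoflurane, against 6.87, 6.64 and 6.91 after CO2/O2, a difference of -0.25 ± 0.16 with overlapping groups and of 0.03 when blocked by slide row. Ftcd, which hands the formimino group of histidine to folate, differed by 0.13 ± 0.13.

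Tryptophan leaves the liver pool through the kynurenine pathway, where none of 4 genes passed the test. Tdo2, the dioxygenase that opens the indole ring, had 7.24, 6.70 and 6.99 in isoflurane livers and 6.92, 6.73 and 7.25 in CO2/O2 livers, a difference of 0.01 ± 0.19. Kynu, kynureninase, had 6.44, 6.19 and 6.08 in isoflurane livers and 6.38, 6.36 and 6.72 in CO2/O2 livers, a difference of -0.25 ± 0.14. CO2/O2 replicate 3 was the highest rat for both genes, and the groups overlapped. Kmo, kynurenine monooxygenase, differed by -0.11 ± 0.087 and Haao, which acts near the end of the path to quinolinate, by 0.12 ± 0.12.

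Of the 4 tyrosine breakdown genes, none passed the test, and 4 of 4 had differences below 0, with a median of -0.12, where 52.9% of all genes tested were below 0. Tat, tyrosine aminotransferase, which starts the pathway, had 3.23, 2.15 and 4.06 in isoflurane livers, against 2.65, 3.29 and 3.75 in CO2/O2 livers. The highest and the lowest rat were both in the isoflurane group, isoflurane replicates 3 and 2, so the difference of -0.09 ± 0.51 covered a spread of 3.76-fold; without isoflurane replicate 2 it was 0.41. Hgd, homogentisate dioxygenase, had 6.43, 6.38 and 6.04 after isoflurane, against 6.51, 6.25 and 6.64 after CO2/O2, a difference of -0.18 ± 0.15 with overlap. Hpd, which makes homogentisate, differed by -0.16 ± 0.16, and Fah, which ends the pathway, by -0.03 ± 0.093. Blocked by slide row these became 0.15 for Hpd and 0.04 for Fah, and Fah reached 0.02 with an array left out, so the shared sign did not hold.

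**Figure D3:**
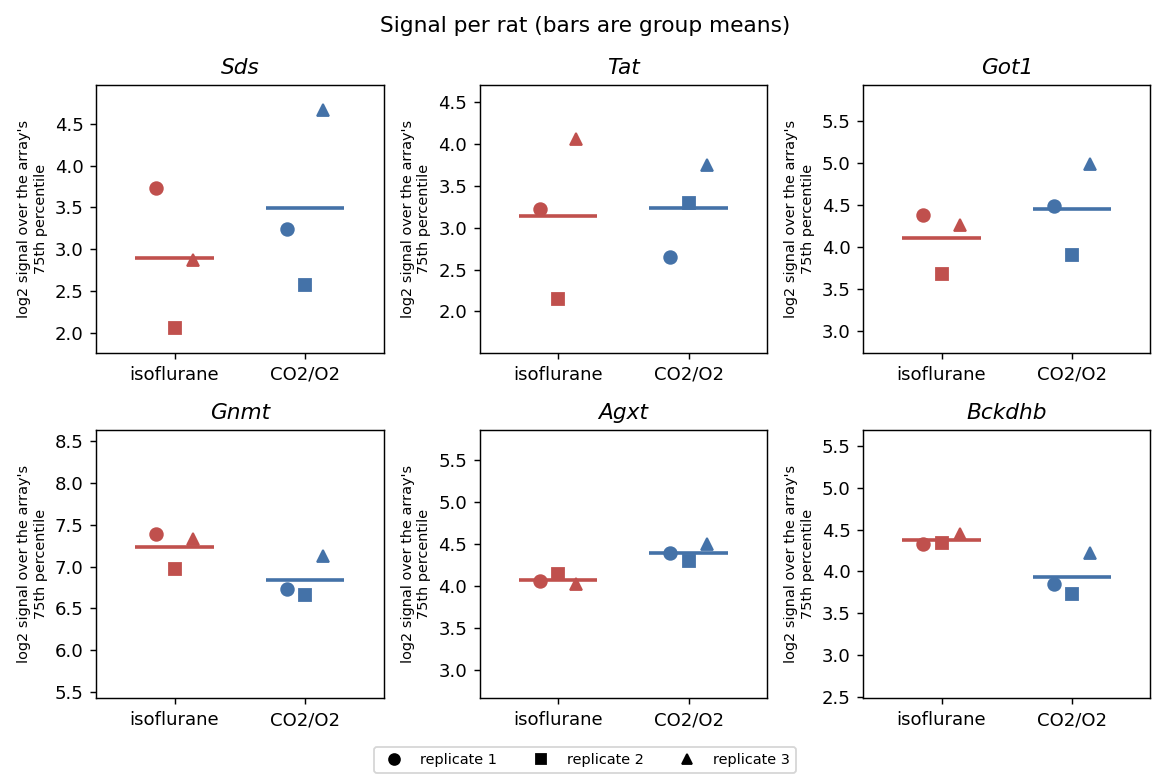
Log2 signal over the array's 75th percentile for 6 genes in each rat, isoflurane on the left and CO2/O2 on the right of each panel, with group means as bars, symbols for replicate numbers and axes of equal span. Sds, Tat and Got1 scatter by 6.07-fold, 3.76-fold and 2.47-fold between rats, whereas the groups do not overlap for Agxt and Bckdhb.

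Among the genes of methionine and choline breakdown, 4 of 7 had differences above 0, with a median of 0.18. Gnmt, which methylates glycine and so uses up S-adenosylmethionine, had 7.39, 6.97 and 7.32 in isoflurane livers, against 6.73, 6.66 and 7.13 in CO2/O2 livers. Only CO2/O2 replicate 3 reached into the isoflurane range, and the difference was 0.39 ± 0.17 (limma, adjusted p = 0.671). Bhmt, which remethylates homocysteine with betaine, had 8.70, 7.94 and 8.44 after isoflurane, against 8.64, 8.22 and 8.74 after CO2/O2, a difference of -0.17 ± 0.23. For it isoflurane replicate 2 was lowest and CO2/O2 replicate 3 highest, and the difference turned to 0.04 without isoflurane replicate 2 and to 0.17 when blocked by slide row. Mat1a, the liver S-adenosylmethionine synthetase, differed by -0.01 ± 0.15, and the transsulfuration enzymes Cbs and Cth by 0.19 ± 0.19 and -0.26 ± 0.19. Dmgdh and Sardh, which strip methyl groups from dimethylglycine and sarcosine in mitochondria, differed by 0.18 ± 0.12 and 0.22 ± 0.16.

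Branched-chain amino acid breakdown held the other gene with a small unadjusted p. Bckdhb, the E1 beta subunit of the branched-chain ketoacid dehydrogenase, had 4.33, 4.34 and 4.45 in isoflurane livers, against 3.85, 3.73 and 4.23 in CO2/O2 livers. The groups did not overlap, and the difference of 0.44 ± 0.14 had an adjusted p of 0.609 by limma (unadjusted p = 0.0208). It was 0.40 when blocked by slide row and lay between 0.34 and 0.59 with any array left out. Since the groups did not overlap, its sign could not change in either. Bckdha, the E1 alpha subunit, differed by 0.16 ± 0.12, and Ivd, which acts on leucine's chain, by -0.07 ± 0.12. Aass, which starts lysine breakdown, had 1.503, 0.620 and 0.615 in isoflurane livers, against 1.251, 1.047 and 1.520 in CO2/O2 livers, a difference of -0.36 ± 0.27. Isoflurane replicates 2 and 3, the rats of slide row 2, were its lowest, and the difference was 0.23 when blocked by slide row. Aldh4a1, of proline breakdown, differed by 0.01 ± 0.10.

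Second probes showed the same rats as high or low. Both probes of a pair read the same RNA on the same array, so rat and array cannot be told apart by them. There were 16 further tested probes in 13 of the genes, and each was correlated with the probe that stands for its gene over the 6 arrays. After Benjamini-Hochberg adjustment over the 16 pairs, 15 had a two-sided exact permutation p under 0.05 by Pearson's r, the largest of them 0.0296, and 11 by Spearman's rho. In these 15 pairs r lay between 0.85 and 0.99 and rho between 0.77 and 1.00. Without the 2 farthest arrays r lay between 0.38, for Asl, and 1.00, and exceeded 0.5 in 14 of 15. The wide spread of Sds was seen at its other probe too, which had 1.69, 0.44 and 0.87 after isoflurane, against 1.36, 0.99 and 2.44 after CO2/O2 (r = 0.99). The exception was the dim second probe of Slc25a15 (r = -0.05, exact permutation p = 0.954). The sign of the difference was shared by all probes of 10 of the 13 genes and differed in Slc25a15, Gpt and Aldh4a1.

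**Figure D4:**
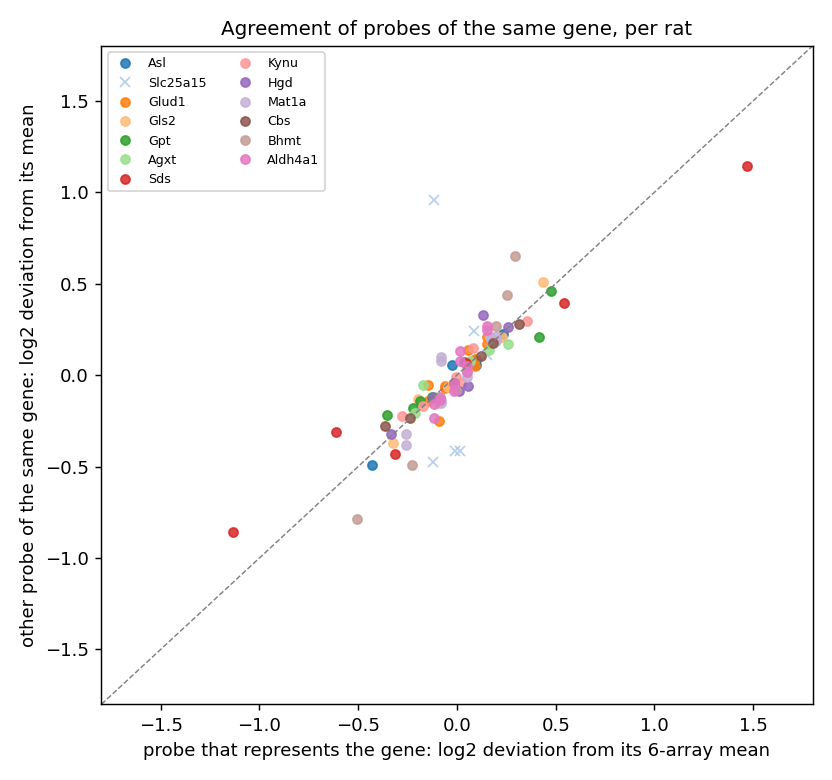
Each further probe's log2 deviation from its mean over the 6 arrays (vertical axis) against that of the probe standing for the same gene (horizontal axis), 1 point per probe pair and rat, coloured by gene, with a dashed line of equality. In 15 of 16 pairs both probes are high or low in the same rats, with r from 0.85 to 0.99, though some, such as Bhmt, run steeper than the line; the points of Slc25a15 (crosses) show no such order.

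The signals ran partly together over the 6 rats. Over the 666 gene pairs the median Pearson r was 0.37, against 0.01 over all genes tested and 0.03 over the 5750 of the bright genes with a value on every array, and 74.9% of the pairs were positive. Taken on deviations from the group means, it was 0.47, against 0.01 over all genes. These are descriptions, since all pairs share the same 6 arrays. With an array left out the median lay between 0.31 and 0.49, the highest without isoflurane replicate 3.

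Reaction neighbours were compared in 23 pairs that share a step, a complex or a pathway. By two-sided exact permutation over the 720 pairings of the arrays, 0 of 23 passed Benjamini-Hochberg adjustment over the pairs, with a smallest adjusted p of 0.503, and 0 had an unadjusted p under 0.05 by Pearson's r or Spearman's rho. The median r was 0.44, with 18 pairs positive and 5 negative. Gls2 and Glud1 ran opposite (r = -0.80, exact permutation p = 0.0597; rho = -0.77, p = 0.103), and r was -0.58 without the 2 farthest rats. Ass1 and Asl had r = 0.78 (exact permutation p = 0.0778; rho = 0.60, p = 0.242), which was 0.23 without the 2 farthest. Bckdha and Bckdhb, subunits of the same enzyme, had r = 0.74 (exact permutation p = 0.0653; rho = 0.83, p = 0.0583), and 0.66 without the 2 farthest. Asl and Arg1 had r = 0.68 (exact permutation p = 0.0875, rho = 0.54 with p = 0.297), and -0.06 without the 2 farthest. The 2 rats left out were those farthest from the median of the first gene named, which left 4 arrays. What a relation rested on cannot be read from so few. On deviations from the group means, r was -0.80 for Gls2 with Glud1 and 0.82 for Ass1 with Asl. It was 0.59 for Bckdha with Bckdhb and 0.86 for Asl with Arg1. Slide rows held 4 and 2 arrays, and correlations within a row were not computed.

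Other genes of amino acid breakdown and ammonia handling numbered 70, of which 61 were tested, and 0 passed the threshold in limma's fit. At an unadjusted p under 0.05 there were 2, or 3.28%, where all genes had 7.58%, and 6, or 9.84%, did not overlap between groups, against 14.2%, with a median difference of 0.03. Gcat, which splits the threonine product aminoketobutyrate into glycine, had 3.47, 3.55 and 3.29 in isoflurane livers, against 3.27, 3.15 and 3.02 in CO2/O2 livers, a difference of 0.29 ± 0.11. Aqp9, a channel for glycerol and urea, had 7.22, 6.80 and 7.13 in isoflurane livers, against 7.39, 7.34 and 7.35 in CO2/O2 livers, a difference of -0.31 ± 0.13. Neither gene's groups overlapped, and adjusted p by limma was 0.649 for Gcat and 0.655 for Aqp9. Gamt, which makes creatine, had 6.67, 7.08 and 6.90 after isoflurane, against 6.66, 6.49 and 6.63 after CO2/O2, a difference of 0.29 ± 0.13. Prodh2, hydroxyproline dehydrogenase, had 5.26, 5.23 and 5.16 after isoflurane, against 5.54, 5.36 and 5.36 after CO2/O2, a difference of -0.20 ± 0.089. Their groups did not overlap either. Of 10 transcription factors and receptors known to control these pathways, 9 were tested and 0 had an unadjusted p under 0.05; the glucocorticoid receptor Nr3c1 had 2.03, 1.91 and 1.69 in isoflurane livers, against 2.07, 2.13 and 2.18 in CO2/O2 livers, a difference of -0.25 ± 0.11 without overlap (limma, adjusted p = 0.672).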

How the data were processed

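RNA from 6 livers, 1 rat per array, was labelled with Cy3 from 0.2 ug per the labels' protocols. Images were read with Agilent Feature Extraction 10.7 per the submitters' processing notes. The authors deposited spot intensity values, background-corrected per the file headers and not scaled between arrays, and a table of linear ratio values, each column of which was the intensity divided by 1 number near that array's 75th percentile, with no centring; the choice of that number is not given in the sources. Its column medians were 0.0917, 0.0900 and 0.0905 for isoflurane and 0.0864, 0.0881 and 0.0868 for CO2/O2.

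Here log2 intensity was reduced by the 75th percentile of the 61657 non-control probes. The 177 spots marked as outliers, 0 of them in these genes, were left out, and 0 were saturated. Testing was limited to probes well above background throughout the 3 arrays of either group. Probes were named by transcript accession through RefSeq genes of GRCr8, for names only, since the array header names another build: 27460 matched 1 gene and 34197 none. A gene took its tested probe with the highest mean. Differences came from limma 3.58.1 (lmFit, eBayes) in R 4.3.3 on all 6 arrays, with Benjamini-Hochberg adjustment over 34637 probes. In 10 simulated datasets of that size for isoflurane minus CO2/O2 the test recovered 64.5% of 2-fold and 91.9% of 4-fold changes, with 5% false calls. Noise was drawn independently for each probe, and changes were put in probes of the whole array other than the dimmest. Recovery in this set of genes was not measured. The number of arrays limits the precision.

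The genes, lists, pairs and tests were chosen with earlier results of these data known. Values per array were given for the urea cycle enzymes and, in each other role, for the gene with the largest moderated t and the one with the largest SD, for the other lists for the 4 and 1 genes with the largest moderated t, and for the 4 neighbour pairs with the largest r. Got2, the second probes of Agxt and Sds, and the promoters were chosen after their values were seen. Nothing in the labels pairs the rats.

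Alternatives were quantile normalization, normexp (offset 50), the authors' table, median centring, other probe filters, outlier spots kept, trended robust eBayes, the mean of a gene's probes, the slide row or the replicate number as a block, and each array left out.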

Additional observations from a re-analysis of the deposited data

How the results depend on the processing

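The count of amino acid genes past the adjusted threshold was 0 of 37 in limma's fit and in each alternative run, as was the count among the other pathway genes, and the count of correlated neighbour pairs was 0 where it was recomputed. The count at an unadjusted p under 0.05, 2, was 1 when blocked by slide row (4.39% of all genes tested) and 1 to 5 with an array left out. The count without overlap between groups, 3, was 5 with quantile normalization (14.7% of all genes) and 3 to 11 with an array left out. The median difference of -0.03 lay between -0.12 and 0.07 with an array left out and was 0.09 when blocked by slide row, and the median SD of 0.193 lay between 0.185 and 0.216 with an array left out. Median centring lowered all differences by 0.06. The sign of the difference held with any array left out in 24 of 37 genes. The median correlation of 0.37 was 0.31 with quantile normalization, 0.33 with normexp and 0.39 with median centring, alternatives added after seeing the data. The causes of these shifts were not tested.

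With the replicate number as a block the count past the threshold was 0, the count at an unadjusted p under 0.05 was 3 (8.36% of all genes tested), the median SD was 0.145 and the median difference was -0.03. Deviations of same-numbered rats correlated at 0.11, 0.02 and 0.06, so the numbers were not taken to pair the rats, although each isoflurane array correlated best with its own number.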

Other observations

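Among the other genes of amino acid breakdown and ammonia handling, Slc7a2, Agxt2 and Oat were picked with their values in view. Slc7a2, which carries arginine and other cationic amino acids into cells, had signals of 1.27, -0.11 and 1.01 in isoflurane livers, against 0.69, 2.08 and 2.33 in CO2/O2 livers, a difference of -0.98 ± 0.54 (limma, adjusted p = 0.725). Its lowest rat was isoflurane replicate 2 and its highest CO2/O2 replicate 3, the same rats that were lowest and highest for Sds and Got1, and the groups overlapped. Agxt2, a mitochondrial aminotransferase, had 4.36, 4.74 and 2.92 in isoflurane livers, against 4.73, 4.68 and 4.05 in CO2/O2 livers, a difference of -0.48 ± 0.48 (limma, adjusted p = 0.844). Replicate 3 was the lowest rat of each group for Agxt2, and isoflurane replicate 2 the highest of all, so its order differed from that of Sds. Oat, ornithine aminotransferase, had 5.996, 5.875 and 5.192 in isoflurane livers, against 6.388, 5.911 and 6.4003 in CO2/O2 livers, a difference of -0.55 ± 0.25 (limma, adjusted p = 0.679). Only isoflurane replicate 1 reached into the CO2/O2 range for Oat.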
